A study of Mus musculus with 6 samples.

Results

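Growth factor receptors of the glial lineage were examined as 10 receptor tyrosine kinase genes among the 23038 genes of the files, namely Pdgfra, Pdgfrb, Fgfr1, Fgfr2, Fgfr3, Egfr, Erbb2, Erbb3, Erbb4 and Igf1r. They were taken by gene symbol, as the receptors for PDGF, FGF, EGF, neuregulin and IGF, and each symbol was found once. RNA came from mouse primary cultured OPCs (mOPCs), the glial precursors that give rise to myelinating oligodendrocytes (OLs), which the study purified from mid-gestation embryos by immunopanning. Of the 6 libraries, 3 came from cells transfected with control siRNA (siNC) and 3 from cells transfected with siRNA for Qk (siQk), which encodes the RNA-binding proteins Qki5, Qki6 and Qki7, and the study collected the cells 72 h after transfection. The labels speak of different siRNAs against Qk without saying which library received which, so that siQk replicates may differ in their siRNA as well as in their culture. Mouse OPCs are commonly captured on antibodies against the PDGFRα protein, but the antibody used here and the growth factors in the medium are not given in the sources used here. The knockdown was partial, and Qk averaged 193 ± 25.9 RPKM (SD, n = 3) in siNC against 54.7 ± 20.4 RPKM (SD, n = 3) in siQk. By library, Qk was at 209, 206 and 163 RPKM in siNC replicates 1 to 3, and at 51.3, 76.6 and 36.2 RPKM in siQk replicates 1 to 3, with no overlap (log2 fold change -1.98, edgeR FDR 0.00311). RPKM is the tag number divided by exon length and by the library total, so that levels of different genes are compared here per length.

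Receptor tyrosine kinases are surface proteins whose intracellular kinase is switched on when a ligand brings receptors together, after which adaptor proteins pass the signal to the Ras/ERK, PI3K/Akt and PLCγ pathways. PDGFRα is the receptor through which PDGF-A drives division and survival of OPCs, and it is lost as OLs mature. FGF receptors act in succession along the lineage, with FGFR1 and FGFR3 in progenitors and FGFR2 in maturing OLs, while neuregulins signal through ErbB3 and ErbB4 and IGF-1 supports survival and myelination through IGF1R.

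The RNA motif bound by Qki proteins, read here as the DNA letters ACTAAC or ACTAAT on the transcript strand, was looked up in the longest annotated 3′UTR (GENCODE M21, mm10) of the 7 receptors that had an entry in the RefSeq promoter table. Pdgfrb, Fgfr1 and Erbb3 had no entry and were not searched. The motif was present in 5 of the 7: once in Pdgfra and in Fgfr2, 2 times in Egfr and in Igf1r, and 5 times in Erbb4. It was not in the annotated 3′UTR of Fgfr3 or Erbb2. Of 10819 tested genes with an annotated 3′UTR of at least 50 bases, 36.2% held the motif, at 0.343 motifs per kilobase. No promoter entry was required for these genes, and their median 3′UTR was 1300 bases. Those of Pdgfra, Egfr, Igf1r and Erbb4 were longer, at 3115, 6303, 7267 and 7855 bases. A longer 3′UTR has more places for the motif, so 5 of 7 and 36.2% are not like for like. Erbb4 had 0.637 motifs per kilobase over 7855 bases and Fgfr2 had 0.663 over 1508 bases, whereas Pdgfra had 0.321, Egfr 0.317 and Igf1r 0.275. Both ACTAAC sites of Erbb4 and every site of the other 4 genes are shown because the libraries compare cells with and without most of their Qk transcript, and no binding was measured. The ACTAAC sites of Erbb4 begin at bases 5845 and 7492 of its 3′UTR, and its ACTAAT sites, not shown, all lie nearer the start. Each line gives the motif in capitals with 10 bases on either side, in the 3′UTR of the named gene.
Pdgfra (chr5:75195671-75195696, plus strand): aaagataaaaACTAACcaaccgtgag
Fgfr2 (chr7:130163167-130163192, minus strand): acgatatatgACTAATttggggggaa
Egfr, first site (chr11:16914337-16914362, plus strand): gcatctttctACTAACtgcctttcag
Egfr, second site (chr11:16917713-16917738, plus strand): tgatgacatgACTAACcacagacagc
Igf1r, first site (chr7:68230405-68230430, plus strand): gccgtcataaACTAATgctccagaaa
Igf1r, second site (chr7:68232133-68232158, plus strand): gtttacaagaACTAATtcaatgtttc
Erbb4, site nearer the start (chr1:68034181-68034206, minus strand): attgctgccaACTAACttatttactt
Erbb4, site nearer the end (chr1:68032534-68032559, minus strand): cttaacacatACTAACttttttaatg

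Libraries held 58166490 to 141045937 tags, and the smallest, siNC replicate 1, also had the most ribosomal RNA, with Rn45s taking 3.11% of its tags while the other 5 ranged from 0.169% to 0.389%. Tag numbers were tested with edgeR's quasi-likelihood model over 12505 genes, where a changed transcript had to have both P below 0.01 and an FDR below 0.1. The 9 OPC marker genes looked up were all present, with Olig1 at the highest mean level (268 ± 11.2 RPKM in siNC against 402 ± 35.7 RPKM in siQk, SD, n = 3 each). Genes of maturing OLs were also present. The 12 OL markers summed to between 3515 and 6128 RPKM in siNC and between 1515 and 2278 RPKM in siQk. The 9 OPC markers summed to between 1150 and 1346 RPKM in siNC and between 1417 and 1521 RPKM in siQk. In siNC the OL sum was the larger in every library, and the share of OPCs among the cells was not measured. Replicate numbers of the labels were not taken as pairs.

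Of the 10 receptors, 8 passed the filter on low counts, and Fgfr1 was the single receptor called changed. It rose in siQk, while no receptor was called lower in siQk. By comparison, 31.0% of all tested genes were called, 13.8% as higher and 17.2% as lower. For the receptors lower in siQk, the count of 0 from edgeR compares with 1 at an unadjusted P below 0.05 (Erbb3) and with 0 called by DESeq2. RPKM ranges of siNC and siQk did not overlap for 3 of the 8 receptors, against 58.3% of all tested genes. The median log2 fold change of the 8 was -0.02, against 0.01 for all tested genes.

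**Figure D1:**
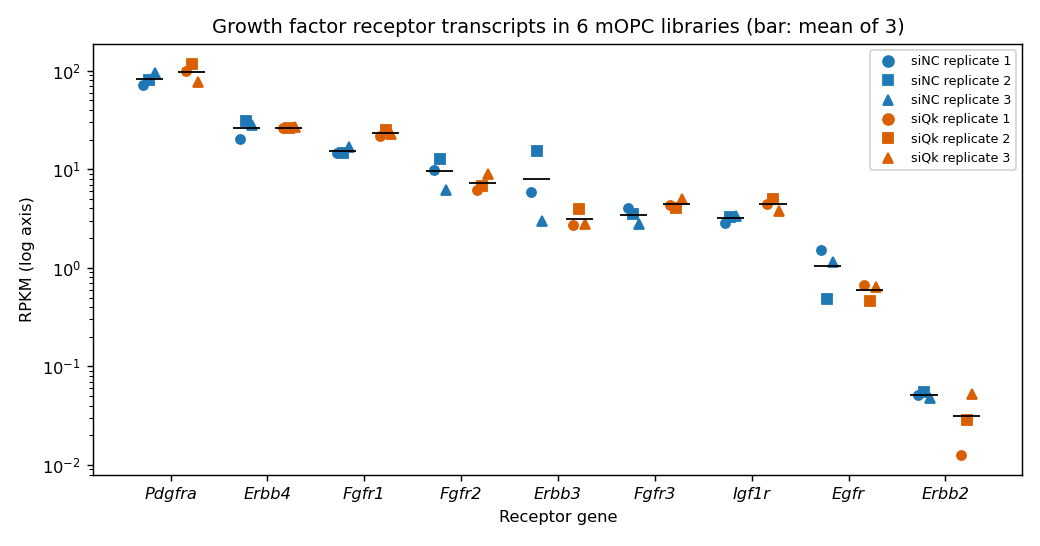
RPKM on a log axis for 9 receptors in each of the 6 libraries, with siNC in blue, siQk in orange, a symbol for each replicate and a bar at the mean of 3. Pdgfra stands highest in every library and Erbb2 lowest of those drawn, while Pdgfrb is left out because 4 libraries hold no tag for it. Fgfr1 is the receptor whose siQk points stand clear above its siNC points by the widest margin.

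Pdgfra (chr5:75152292-75198215, plus strand), the PDGF-A receptor of OPCs, was the most abundant of the 10 receptors. Its level was 71.1, 80.9 and 94.1 RPKM in siNC replicates 1 to 3, and 98.2, 118 and 76.3 RPKM in siQk replicates 1 to 3. The groups overlapped, since siQk replicate 3 lay within the siNC range while siQk replicate 2 was the highest of all. Means were 82.0 ± 11.5 RPKM in siNC against 97.5 ± 20.9 RPKM in siQk (SD, n = 3 each). The log2 fold change was 0.10 with a 95% interval from -0.27 to 0.48 (edgeR FDR 0.636), and it was -0.05 without siQk replicate 2. Thus neither direction was established. In the siQk libraries Pdgfra and Qk had the same order, highest in replicate 2 and lowest in replicate 3. In the siNC libraries the order was opposite, with Qk highest and Pdgfra lowest in replicate 1, and the reverse in replicate 3. These orders describe 3 libraries a group.

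The genes whose log2 CPM followed that of Pdgfra most closely over the 6 libraries were Alg9 (Pearson r = 0.991), Zfp874b (r = 0.984) and Nck1 (r = 0.973). Nck1, an SH2/SH3 adaptor that binds activated receptors, was at 13.03, 14.7 and 15.3 RPKM in siNC against 16.1, 17.4 and 15.0 RPKM in siQk. These are the highest correlations among the 12505 tested genes, picked for their likeness, and no test was made.

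Pdgfrb, the PDGF receptor of pericytes and other mural cells, was all but absent. The files list 1 tag in siNC replicate 1, 1 tag in siQk replicate 1 and none in the other 4 libraries, each under the limit of 3 tags that a count of 0 allows, which corresponds to between 0.0039 and 0.0095 RPKM for this gene. No fold is given. The 12 markers of mural cells, fibroblasts and vessels reached no more than 0.39 RPKM each in any library and summed to between 0.662 and 0.836 RPKM in siNC and between 0.792 and 0.989 RPKM in siQk. Acta2, with the highest mean over the 6 libraries, averaged 0.111 RPKM in siNC against 0.337 RPKM in siQk, and Rgs5, the highest in siNC and chosen after its values were seen, averaged 0.282 against 0.142 RPKM. Pdgfrb made up 0.00445% or less of the RPKM of the pair in every library, so that PDGF receptor transcripts were Pdgfra transcripts.

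The FGF receptors differed from one another. Fgfr1 (chr8:25513654-25575718, plus strand), which carries FGF signals in progenitors, was at 14.7, 14.6 and 16.8 RPKM in siNC against 21.9, 25.1 and 22.8 RPKM in siQk. No siQk library was as low as any siNC library (p = 0.1 in a two-sided exact permutation test, which cannot give a smaller value with 3 libraries a group). Fgfr1 rose by 0.45 on the log2 scale (standard error 0.07, 95% interval from 0.28 to 0.62, edgeR FDR 0.00492). The mean RPKM in siQk was 152% of that in siNC, a larger difference than the fitted one because RPKM carries no TMM factor. Scaled by library size alone, the log2 fold change was 0.60, or 0.44 above the median of 0.16 that this scaling gives all tested genes. Fgfr1 was called with each library left out in turn, with log2 fold changes from 0.40 to 0.49.

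OL markers moved the other way beside Fgfr1. Of the 12, 9 fell, beside the 17.2% called lower among all tested genes. None was called higher by edgeR or DESeq2, nor was any higher at an unadjusted P below 0.05. The median log2 fold change was -1.67, with Mal at -4.73, Mobp at -4.59 and Mag at -2.58. Among the 9 OPC markers 3 rose, beside the 13.8% called higher among all tested genes. These were Cspg4, Olig2 and Olig1 with log2 fold changes of 0.93, 0.69 and 0.43, and Lhfpl3 fell (-1.07). The median of the 9 was 0.14, against 0.01 for all tested genes. The OPC markers summed to between 1150 and 1346 RPKM in siNC and between 1417 and 1521 RPKM in siQk. Such sums carry no TMM factor, and scaling by library size alone gave all tested genes a median log2 fold change of 0.16. In these bulk libraries fewer cells of a type and less RNA per cell cannot be told apart, and the part of cell composition in the rise of Fgfr1 was not tested.

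Fgfr2 (annotated on the minus strand of chromosome 7), the FGF receptor of maturing OLs, was at 9.86, 12.7 and 6.11 RPKM in siNC against 6.20, 6.77 and 8.94 RPKM in siQk. The groups overlapped, with siNC replicate 3 the lowest library of all and siNC replicates 1 and 2 the highest. Its log2 fold change was -0.54 (95% interval from -1.21 to 0.12, edgeR FDR 0.167). Without siNC replicate 3 it was -0.80 and was called changed (FDR 0.0192, edgeR).

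Fgfr3 (chr5:33721674-33737068, plus strand) was at 4.05, 3.54 and 2.80 RPKM in siNC against 4.31, 4.06 and 5.004 RPKM in siQk. The siQk values lay above the siNC values by a narrow margin, 4.06 against 4.05 RPKM between the nearest libraries. After TMM scaling the log2 fold change was 0.21 with a 95% interval from -0.22 to 0.63 (edgeR FDR 0.386), and Fgfr3 was not called.

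**Figure D2:**
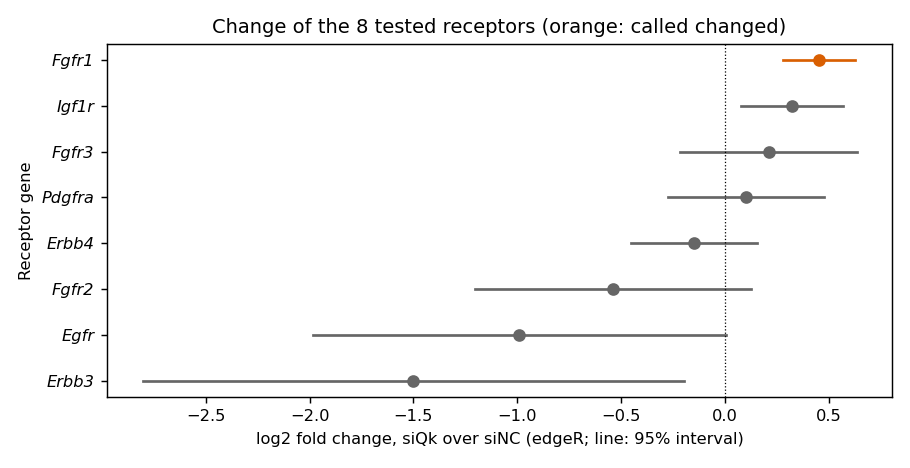
Log2 fold change of siQk over siNC from edgeR for the 8 tested receptors, with lines for the 95% interval and the called receptor in orange. Fgfr1 sits at 0.45 with an interval that ends at 0.28 on its lower side, and the intervals of Erbb3 and Egfr are the widest.

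Summed over Fgfr1, Fgfr2 and Fgfr3, the FGF receptors reached 28.4 ± 2.55 RPKM in siNC against 35.1 ± 2.29 RPKM in siQk (SD, n = 3 each), and every siQk sum exceeded every siNC sum (exact permutation test, two-sided, p = 0.1). These sums carry no TMM factor, and scaling by library size alone gave all tested genes a median log2 fold change of 0.16. How much of the difference came from scaling was not tested. Shares within a library do not depend on scaling between libraries. Fgfr1 made up 51.4%, 47.4% and 65.3% of the FGF receptor RPKM in siNC against 67.6%, 69.9% and 62.1% in siQk. The Fgfr2 share was 34.5%, 41.1% and 23.8% in siNC and 19.1%, 18.8% and 24.3% in siQk. For both the groups overlapped, because siNC replicate 3 had the make-up of the siQk libraries. The exact permutation test gave p = 0.2 for each, or 0.45 after Benjamini-Hochberg adjustment over 9 shares. Fgfr3 held 12.2 ± 1.73% in siNC and 12.7 ± 1.26% in siQk.

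**Figure D3:**
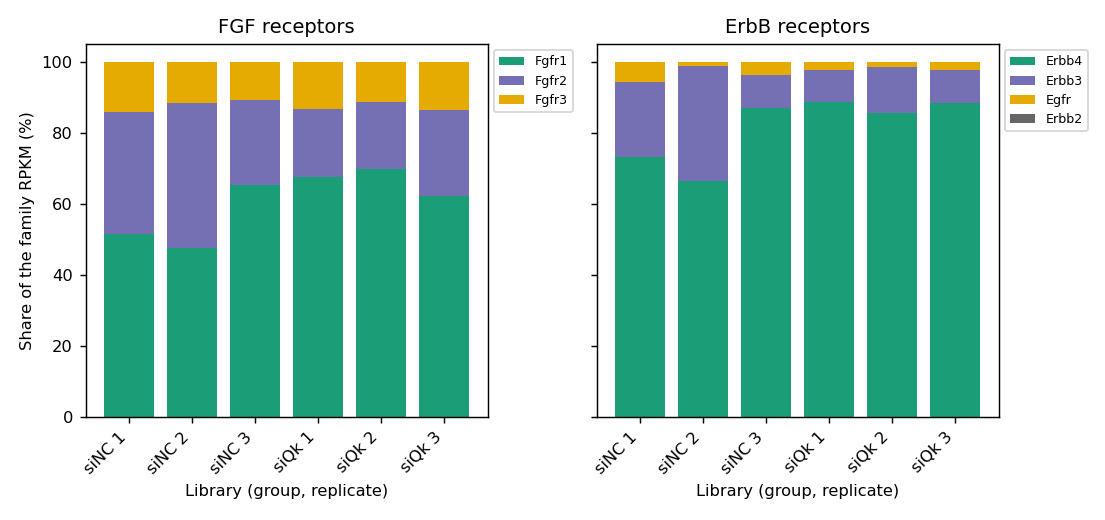
Share of each receptor in the summed RPKM of its family, one bar per library, with FGF receptors on the left and ErbB receptors on the right. Fgfr1 and Erbb4 take the largest part of each bar, and siNC replicates 1 and 2 show larger parts of Fgfr2 and Erbb3 than the other 4 libraries, while Erbb2 is too small to be seen.

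Among the ErbB receptors, Erbb4 (chr1:68032186-69108059, minus strand), a neuregulin receptor with a kinase of its own, was the most abundant. It was at 20.1, 31.0 and 28.2 RPKM in siNC against 26.4, 25.9 and 26.7 RPKM in siQk. The siQk libraries lay close together inside the siNC range. Means were 26.4 ± 5.67 RPKM in siNC against 26.4 ± 0.394 RPKM in siQk (SD, n = 3 each). The log2 fold change was -0.15 with a 95% interval from -0.45 to 0.16 (edgeR FDR 0.390), so that the fit left room for a change of up to 0.45 downward. It was -0.0047 in edgeR when scaled by library size alone and 0.020 with limma on log2(RPKM + 0.1), and without siNC replicate 1 it was -0.28 and was called changed (FDR 0.0388, edgeR).

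Erbb3 (chr10:128567523-128589652, minus strand), a neuregulin receptor with little kinase activity that signals through partners, varied most between siNC libraries. It was at 5.84, 15.2 and 3.02 RPKM in siNC against 2.74, 3.94 and 2.80 RPKM in siQk. A single library, siNC replicate 2, stood far above the rest, and siNC replicate 3 lay inside the siQk range. The log2 fold change was -1.50 (standard error 0.55, 95% interval from -2.80 to -0.20, edgeR FDR 0.0701), and with an unadjusted P of 0.0297 in edgeR it missed the cutoff of 0.01. It was -0.67 without siNC replicate 2, while without siNC replicate 3 it was -1.90 and was called changed (FDR 0.0135, edgeR). The size of the Erbb3 difference thus rested on which siNC libraries were used.

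Among the OL markers, siNC replicate 3 was the lowest siNC library for 10 of the 12 markers, and siNC replicate 2 was the lowest for the other 2, Cldn11 and Opalin. Mobp was at 5.12, 25.2 and 1.61 RPKM, Mag at 174, 158 and 55.6 RPKM, Mbp at 233, 209 and 86.5 RPKM, and Mog at 29.6, 40.0 and 5.85 RPKM in siNC replicates 1 to 3. Replicate 3 was the lowest for these 4, as it was for Erbb3 and Fgfr2, while the highest was replicate 1 for Mag and Mbp and replicate 2 for Mobp, Mog, Erbb3 and Fgfr2. Mbp and Mog, like Cldn11 and Opalin, were picked after their values were seen. Cldn11 was at 1101, 737 and 834 RPKM and Opalin at 180.5, 82.9 and 115 RPKM in siNC replicates 1 to 3. The whole list of 12 OL markers summed to 6128, 5421 and 3515 RPKM in the same libraries, and none of the 12 was at 0 in any library. Whether the share of maturing OLs had a part in the spread of Erbb3 and Fgfr2 was not tested.

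**Figure D4:**
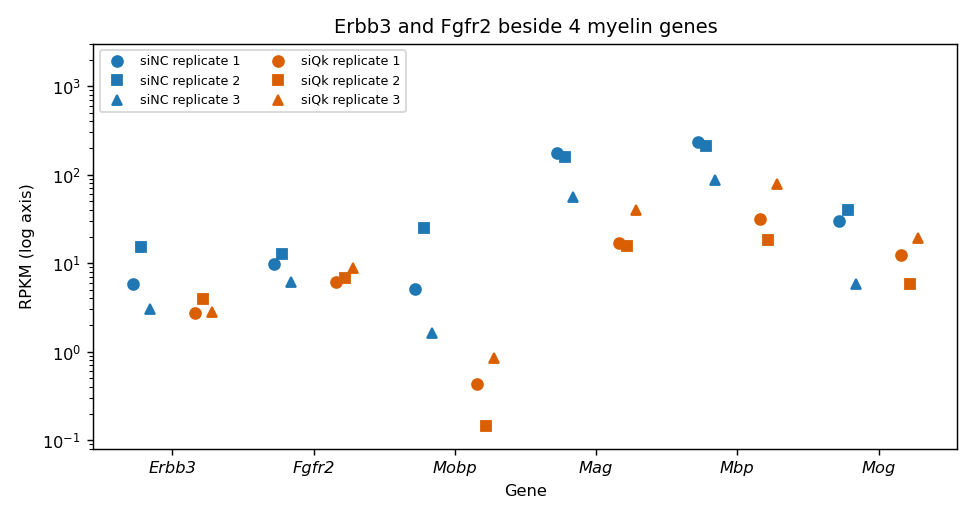
RPKM on a log axis of Erbb3, Fgfr2 and 4 myelin genes in each library, with siNC in blue, siQk in orange and a symbol for each replicate. In siNC, replicate 3 (triangle) is the lowest library for all 6 genes, and replicate 2 (square) is the highest for Erbb3, Fgfr2, Mobp and Mog.

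Egfr (chr11:16752203-16918158, plus strand), the receptor for EGF, TGFα and HB-EGF, was low. It was at 1.52, 0.479 and 1.16 RPKM in siNC against 0.671, 0.460 and 0.637 RPKM in siQk. Here siNC replicate 2 was the low library and lay inside the siQk range. The log2 fold change was -0.99 (95% interval from -1.99 to 0.0037, edgeR FDR 0.103). Without siNC replicate 2 it was -1.35 and Egfr was called changed (FDR 0.0113, edgeR). Markers of astrocytes, another cell that expresses Egfr and Fgfr3, also moved in part. Of 7 tested, 4 were called lower and none higher, beside the 17.2% called lower among all tested genes. None was higher at an unadjusted P below 0.05 or by DESeq2 either. Gfap, Aldh1l1 and Slc1a3 fell with log2 fold changes of -2.95, -2.21 and -1.38. Of the 8 astrocyte genes, 2 were below 1 RPKM in every library, Aqp4 at 0.528 RPKM or less and Gja1 at 0.0130 RPKM or less. The 8 summed to between 289 and 410 RPKM in siNC and between 284 and 307 RPKM in siQk. S100b, the most abundant, did not fall, at 140 ± 26.4 RPKM in siNC against 157 ± 15.8 RPKM in siQk (SD, n = 3 each), and was not called. Whether astrocytes were present, and any part of such cells in the level of Egfr, was not tested.

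Erbb2, the ErbB receptor that binds no known ligand and serves as partner of ErbB3, was very low, though above the limit of 3 tags in every library. It had 15, 31 and 32 tags in siNC and 9, 12 and 34 tags in siQk, or between 0.0126 and 0.0551 RPKM, and was not tested. With no filter on low counts its log2 fold change was -0.83 (standard error 0.50, edgeR FDR 0.274). Erbb2 therefore made up 0.185% or less of the ErbB receptor RPKM in every library, so that transcripts of this partner were scarce beside those of Erbb3 and Erbb4.

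Of the ErbB receptor RPKM, Erbb4 held 73.1%, 66.3% and 87.0% in siNC and 88.5%, 85.4% and 88.4% in siQk. Erbb3 held 21.2%, 32.6% and 9.31% in siNC and 9.17%, 12.96% and 9.28% in siQk. Again siNC replicate 3 fell among the siQk libraries while the other two siNC libraries stood apart (exact permutation test, two-sided, p = 0.2 for each, 0.45 after adjustment over the 9 shares). The ErbB receptors together were at 35.6 ± 10.01 RPKM in siNC against 30.2 ± 0.259 RPKM in siQk (SD, n = 3 each, exact permutation test, two-sided, p = 0.7).

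Igf1r (chr7:67952827-68233668, plus strand), the receptor for IGF-1, was at 2.87, 3.30 and 3.35 RPKM in siNC against 4.42, 5.03 and 3.77 RPKM in siQk. All siQk libraries lay above all siNC libraries (exact permutation test, two-sided, p = 0.1). Yet the log2 fold change of 0.32 (standard error 0.10, 95% interval from 0.075 to 0.57) had an unadjusted P of 0.0178 and an edgeR FDR of 0.0487, and so missed the cutoff on P. It was called by DESeq2 (log2 fold change 0.31), with library size only (0.47), with no filter on low counts (0.35) and without siQk replicate 3 (0.42).

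Ordered by mean RPKM in siNC, Pdgfra, Erbb4 and Fgfr1 were followed by Fgfr2, Erbb3, Fgfr3, Igf1r, Egfr, Erbb2 and Pdgfrb. The ranges of the 3 siNC libraries overlapped between Fgfr2 and Erbb3, between Erbb3 and Fgfr3 and between Fgfr3 and Igf1r, so that these neighbours did not differ beyond their spread, and no other neighbours overlapped. In siQk the order differed in the place of Erbb3, which stood seventh, after Fgfr3 and Igf1r, and ranges overlapped between Fgfr3 and Igf1r and between Igf1r and Erbb3. In both groups Pdgfra, Erbb4 and Fgfr1 kept the first 3 places.

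Transcripts for the ligands were mostly scarce. Of 15 PDGF and FGF ligands, 13 stayed below 1 RPKM in every library. Pdgfa, the PDGF chain that activates PDGFRα, was the most abundant, at 59.0, 42.4 and 40.9 RPKM in siNC against 47.0, 42.8 and 57.4 RPKM in siQk, with overlapping groups. Only 3 of these ligands were tested, and none was called by edgeR or by DESeq2, with 1 (Fgf1) at an unadjusted P below 0.05. Of 11 EGF and neuregulin ligands 6 were tested. Hbegf, an EGFR ligand, fell to 0.651 ± 0.221 RPKM from 1.93 ± 0.640 RPKM (log2 fold change -1.72, SD over 3 libraries each), and Nrg2, a neuregulin, rose from 1.71 ± 0.109 to 2.45 ± 0.030 RPKM (log2 fold change 0.36). Tgfa was the most abundant of them, at 14.3 ± 3.15 RPKM in siNC against 13.4 ± 0.980 RPKM in siQk.

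Among 6 tested IGF ligands and binding proteins, Igfbp5 rose and Igfbp7 fell. Igfbp5 was at 2.64 ± 1.02 RPKM in siNC against 6.30 ± 0.990 RPKM in siQk (log2 fold change 1.11), and Igfbp7 at 8.73 ± 4.72 and 2.75 ± 0.458 RPKM (log2 fold change -1.83). The most abundant, Igfbp3, which binds IGFs outside the cell, was at 82.9 ± 16.5 RPKM in siNC against 55.5 ± 22.3 RPKM in siQk (log2 fold change -0.74, not called).

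Adaptors and effectors that carry the receptor signal were all expressed. Of 24 tested, 3 rose and 5 fell, or 8 of 24 beside the 31.0% called among all tested genes, and their median log2 fold change was -0.04. The Shc adaptors Shc4 and Shc2 rose (log2 fold changes 0.90 and 0.64), as did Pik3r1, a regulatory subunit of PI3K (0.76). Irs4 and Irs1, docking proteins of insulin and IGF receptors, fell (-1.86 and -0.93), and so did Sos2, an exchange factor that loads Ras (-0.86).

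Of 15 tested genes listed for receptor turnover, inhibition or binding, 6 fell, beside the 17.2% called lower among all tested genes. None was called higher by edgeR, with 1 (Nedd4) higher at an unadjusted P below 0.05 and called by DESeq2. Stam, which sorts ubiquitinated receptors on endosomes, had a log2 fold change of -1.06, Erbin, which binds ErbB2, of -1.01, and Cbl, a ubiquitin ligase for activated receptors, of -0.75. The others that fell were Lrig1, Stam2 and Errfi1, the last an inhibitor of EGFR family kinases. The median of the 15 was -0.07, against 0.01 for all tested genes. Nedd4, the most abundant, was at 202 ± 22.8 RPKM in siNC against 277 ± 15.4 RPKM in siQk.

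**Figure D5:**
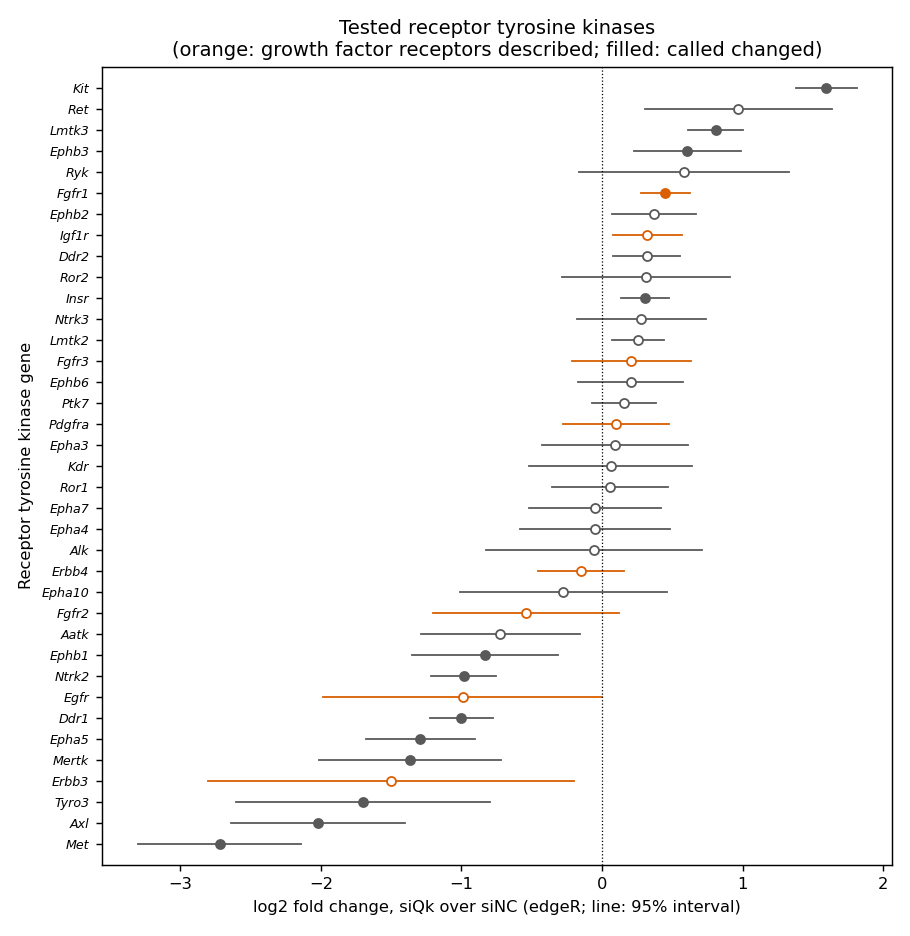
Log2 fold change of siQk over siNC with its 95% interval from edgeR for all tested receptor tyrosine kinases, 8 growth factor receptors in orange and 29 others in grey, filled where called changed. Kit and Met mark the ends at 1.59 and -2.72, and the growth factor receptors lie between Fgfr1 at 0.45 and Erbb3 at -1.50.

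Beside the growth factor receptors, 29 of 48 other receptor tyrosine kinases were tested, of which 4 rose and 8 fell. Over all tested genes, 13.8% were called higher and 17.2% lower. Kit, the receptor for stem cell factor, rose to 20.8 ± 1.75 RPKM from 6.19 ± 0.535 RPKM (log2 fold change 1.59, SD over 3 libraries each), and Lmtk3 and Ephb3 rose with log2 fold changes of 0.81 and 0.61. Met, the receptor for hepatocyte growth factor, and Axl and Tyro3, of the TAM receptor family, fell with log2 fold changes of -2.72, -2.02 and -1.70. Ddr1, a collagen receptor and the most abundant of them, stood above Pdgfra in siNC, at 182 ± 4.16 RPKM, and fell to 101 ± 8.52 RPKM in siQk. Called genes were 12 of the 29 against 1 of the 8, beside 31.0% of all tested genes, and this difference between the lists was not tested.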

How the data were processed

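Total RNA from mOPCs was made into poly(A)-selected libraries by the authors, sequenced as paired-end reads, aligned to mm10 with OLego and quantified with Quantas, in versions and with an annotation not given in the sources used here. What the authors deposited per library is a tag number for every gene, an estimated count with decimals for 23.1% to 26.2% of genes, beside its exon length and its RPKM. Dividing tags by exon length and library total gave back the RPKM. Genes whose reads can be shared with paralogs or overlapping genes are uncertain to that degree.

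Tag numbers were rounded and tested with edgeR 4.0.16 (limma 3.58.1, R 4.3.3; quasi-likelihood test, group as the only term, TMM factors of 0.899 to 0.987 in siNC and 1.04 to 1.07 in siQk) on genes with an average logCPM over 0. A standard error was obtained from the fold change and its F statistic. No 2 libraries of a group agreed within sampling noise (chi-square per degree of freedom 31.7 or more). The labels call the 3 libraries of a group biological replicates, and the study's methods speak of independent cultures. Shares were compared with exact permutation tests. On simulated data with 198 of 12487 genes changed by 1 on the log2 scale, 99.5% were called, and 10.5% of the calls were unchanged genes. The simulation gave every gene the same dispersion and changed far fewer genes than were called in the data. Its rates therefore do not describe receptors that varied between siNC libraries as Erbb3 did.

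The receptors, gene lists and tests were chosen with earlier results of these data known. The text names Qk, the 10 receptors, up to 3 called genes with the highest and with the lowest fold change of each list, the most abundant gene of each marker list and the 3 genes most like Pdgfra, except 1 gene that is not reported here. Pdgfa, Tgfa, Igfbp3, Nedd4 and Ddr1, the most abundant of their lists, were chosen after their values were seen. So were Fgf1, Lrig1, Stam2, Errfi1, Mbp, Mog, Cldn11, Opalin, Rgs5, Aqp4 and Gja1. Markers of neurons (7 tested, Snap25 and Nefl higher, Gad2 lower, Tubb3 the most abundant) and of microglia (1 tested, P2ry12, lower) were checked too. Alternatives were DESeq2 1.42.0, other normalizations and filters, a replicate block, each library left out, a stricter cutoff, tag numbers for shares and limma on log2(RPKM + 0.1).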

Additional observations from a re-analysis of the deposited data

How the results depend on the processing

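The count of receptors called changed, 1 with the settings of the report, was 2 with DESeq2, with library size only and with no filter on low counts, where Igf1r joined Fgfr1, from 1 to 3 with 1 library left out (3 without siNC replicate 3), and 0 at FDR below 0.05 and a log2 fold change of 1 or more in size, a cutoff that Fgfr1 does not reach by size. Fgfr1 was called under all settings but that one. Of 104 log2 fold changes of the 8 tested receptors under alternatives, 94 kept direction and side of the cutoff, 8 became called and 2 turned. Those that turned were Pdgfra without siQk replicate 2 (-0.048, range with 1 library left out -0.048 to 0.246) and Erbb4 with limma on log2(RPKM + 0.1) (0.020, range with 1 library left out -0.28 to -0.028). Over all genes, 3879 were called, 946 at the stricter cutoff, and leaving out single libraries gave 2478 (siQk replicate 1) to 3704 (siNC replicate 3). Calls in the lower direction made up 55.4%, but 31.4% when scaled by library size alone and 44.4% by the upper quartile. Qk kept its call throughout, from -2.29 to -1.76. With the replicate block, 2796 genes and 1 receptor were called. Same-numbered libraries did not deviate together (correlations of -0.053, -0.152 and -0.340), so the numbers were not used as pairs. The causes of these moves were not tested. Tag numbers in place of RPKM moved the Fgfr3 share to 10.1% in siNC and 10.8% in siQk, and the Egfr share in siQk to 2.91%. Erbb2 and Pdgfrb had too few tags to pass the filter on low counts.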
